A study of Mus musculus with 8 samples.

Results

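The EGF receptor family and its ligands were followed in mouse embryonic fibroblasts (MEFs) that were being reprogrammed. The set held 9 genes, chosen by symbol with earlier results of these data known, as were the gene lists below. Its members were the ligand genes Hbegf, Ereg, Areg, Tgfa, Btc and Nrg1 and the receptor genes Egfr, Erbb2 and Erbb3. They were 9 of the 32108 genes in the deposited table. All 9 were read in at least 1 library, and all 9 passed the filter on low values that left 15358 genes for testing. The other 6 genes of both families (Egf, Epgn, Nrg2, Nrg3, Nrg4 and Erbb4) are given beside them.

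Every library came from 4F2A MEFs, a strain whose cells carry an inducible cassette of Oct4, Sox2, Klf4 and c-Myc that doxycycline switches on. Per the labels, the cells were taken from male homozygous embryos at 13.5 days post coitum, doxycycline (2 µg/mL) was added on day 0, and the medium held serum replacement and LIF at 1000 U/mL, a cytokine that supports pluripotent cells. Total RNA was collected after 2, 4, 6 and 8 days of doxycycline (D2, D4, D6 and D8), with 2 libraries per day, and every title calls its library a control. No untreated or day 0 library was analysed here, so each difference is one between days of doxycycline and none is a difference from resting fibroblasts.

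The ERBB receptors are tyrosine kinases that pair up when a ligand binds. EGFR (Egfr) binds the EGF-like growth factors, ERBB2 (Erbb2) has no known ligand and serves as a partner, and ERBB3 (Erbb3) binds neuregulins but has an impaired kinase and signals through its partners. The ligands are made as membrane proteins and are released by ADAM proteases. Amphiregulin (Areg), TGF-alpha (Tgfa), EGF (Egf) and epigen (Epgn) bind EGFR. HB-EGF (Hbegf), betacellulin (Btc) and epiregulin (Ereg) bind EGFR and also ERBB4 (Erbb4), and the neuregulins (Nrg1 to Nrg4) bind ERBB3 or ERBB4. Fibroblasts respond to EGF through EGFR, and several of the ligand genes are themselves switched on by growth factor signalling.

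Values are in CPM, a gene's reads per 1000000 counted reads. The library totals of 19409936 to 20161021 reads were inferred, by taking the most common value above 0 in each library as 1 read. A count of 0 allows up to 3 reads, or 0.149 to 0.155 CPM, which covers counting error only. Differences between days are differences of mean log2(CPM + 1), tested with limma over all 15358 genes and called at a Benjamini-Hochberg adjusted p under 0.05. This scale understates the change of genes at low levels, so ratios of mean CPM are given beside it. Whether both libraries of a day stem from different cultures or embryos is not stated in the labels. The p-values therefore rest on the spread between these samples alone, and that spread may be technical. The D2 libraries were the closest pair, with a mean chi-square of 1.38 per gene between their reads beside 3.76 to 5.6 on the other days, where counting noise alone gives about 1. The 10 fibroblast marker genes were all tested and summed to 25848 to 44057 CPM, led by the collagen genes and Vim; at D2 some were low, with Fap at 5.49, Pdgfra at 11.04 and Lum at 11.3 CPM. The label of male embryos did not match the RNA in any of the 8 libraries, in which Xist lay between 702 and 1238 CPM and each of 4 Y-linked genes at 0.333 CPM or less. Because the RNA of whole cultures was measured, fewer cells of a type and less RNA per cell cannot be told apart.

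Between D2 and D8 the family moved from a ligand set led by Hbegf and Ereg to a lower total in which Ereg and Btc were the highest, while Egfr rose. In D4 against D2, 3 of the 9 genes rose (Tgfa, Btc and Egfr), beside 40.9% of all tested genes called higher, and 4 fell (Hbegf, Ereg, Areg and Nrg1), beside 21.7% called lower. Areg passed the filter only through its 2 libraries of D2, so its fall from D2 was fixed by the filter here and in D8 against D2; without it the falls are Hbegf, Ereg and Nrg1 in the first step. In D6 against D4, Tgfa and Btc rose, beside 25.2% of all genes, and Hbegf and Ereg fell, beside 12.6%. In D8 against D6, limma called 0 of the 9 genes higher, beside 4.72% of all genes, and 0 lower, beside 4.39%. Without adjustment, limma's p was under 0.05 for 1 of them, Ereg. Over the whole interval, D8 against D2, Tgfa, Btc and Egfr rose (3 of 9, beside 47.3% of all genes), and Hbegf, Ereg, Areg, Nrg1 and Erbb2 fell (5 of 9, beside 23.1%). The moderated F test for any difference between days called 7 of the 9, without Erbb2 and Erbb3, beside 80.4% of all genes. Areg is among these 7 and in the medians that follow, though the filter fixed its fall from D2. The median log2 difference of the 9 was -0.03, -0.16, 0.03 and -0.17 in these 4 comparisons, beside 0.11, 0.07, -0.00096 and 0.17 for all tested genes. Successive comparisons share the libraries of the day between them.

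The all-gene split depended on the scaling. With the authors' CPM, 65.3% of called genes were higher in D4 against D2, 66.7% in D6 against D4 and 67.2% in D8 against D2. With median-of-ratios scaling the shares were 52.6%, 46.9% and 50.9%, and with quantile normalization 47.1%, 47.7% and 45.1%. Median-of-ratios scaling moved the median of all genes in D8 against D2 from 0.17 to -0.0040.

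**Figure D1:**
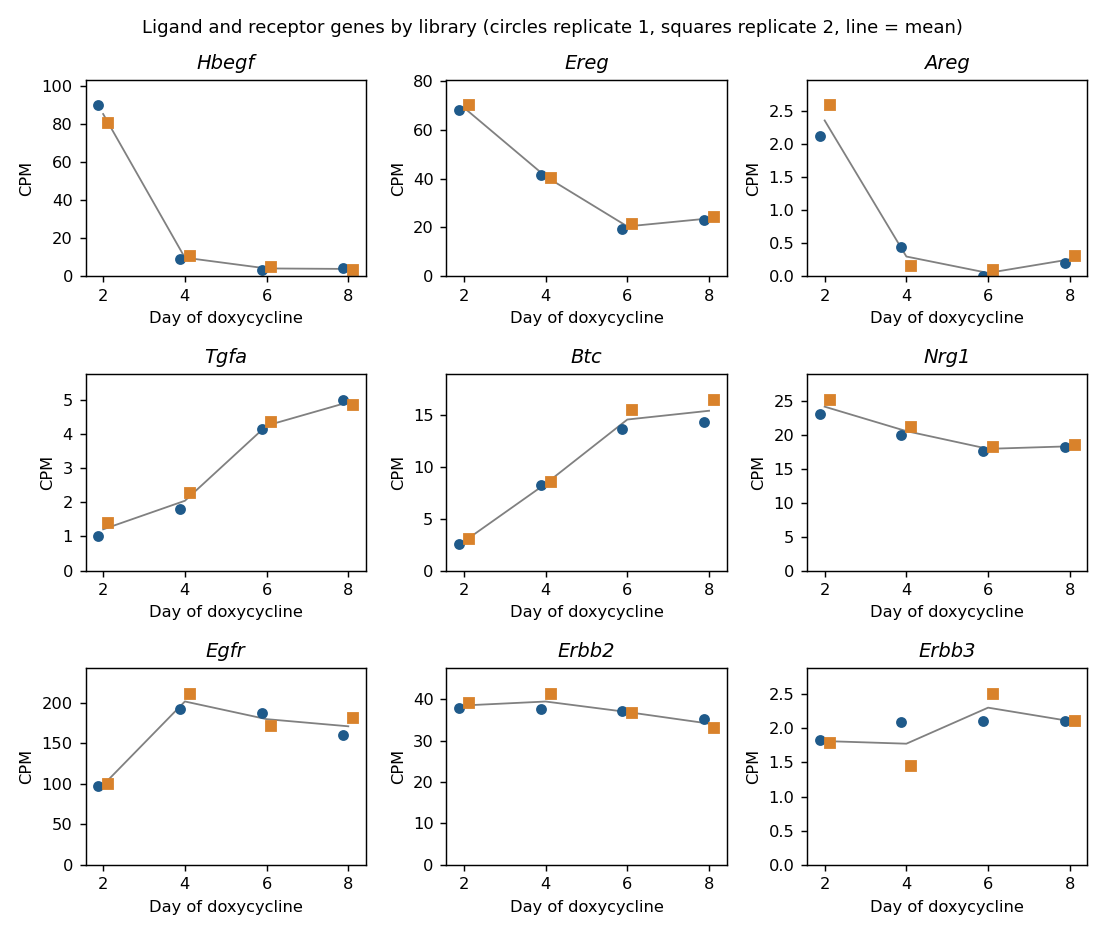
CPM of the 9 genes (vertical axes, each from 0) against the day of doxycycline, with a circle for replicate 1, a square for replicate 2 and a line through the means. Hbegf, Ereg and Areg are highest at D2, Tgfa and Btc are lowest there, Egfr is lowest at D2 and highest at D4, and Erbb2 and Erbb3 stay within narrow ranges.

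Hbegf (ENSMUSG00000024486, mm10 chromosome 18, 36504927 to 36515805, minus strand) encodes HB-EGF, a heparin-binding ligand that also acts while still anchored in the membrane. Its 2 libraries read 89.8 and 80.7 CPM at D2, 9.19 and 10.4 CPM at D4, 3.38 and 4.91 CPM at D6, and 4.28 and 3.49 CPM at D8. The D2 libraries stood far above all others, D4 lay between, and D6 and D8 overlapped. The mean went from 85.3 ± 6.43 CPM (SD, n = 2, as for all values per day here) to 9.81 ± 0.877 CPM, an 8.69-fold fall by D4 (log2 difference -3.00, SE 0.136, limma adjusted p = 7.8e-10). It fell again by D6 (-1.08, adjusted p = 5.29e-05). From D6 to D8 the difference was -0.07, with a 95% interval of -0.36 to 0.23 (adjusted p = 0.803). D8 was 22.0-fold below D2 (-4.15, adjusted p = 1.57e-11), the largest change among the 9 genes.

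Ereg (ENSMUSG00000029377, chromosome 5, 91074622 to 91093646, plus strand) encodes epiregulin. It read 68.1 and 69.9 CPM at D2, 41.6 and 40.0 CPM at D4, 19.4 and 21.4 CPM at D6, and 23.2 and 24.2 CPM at D8. No pair of days overlapped, and the lowest day was D6. Ereg fell by 0.74 on the log2 scale by D4 (SE 0.0667, limma adjusted p = 5.9e-07) and by 0.97 from D4 to D6 (adjusted p = 4.24e-07). The D8 libraries lay above the D6 libraries without passing the test (0.21, adjusted p = 0.0745). D8 was 2.91-fold below D2 (-1.50, adjusted p = 2.97e-10). Of the exon length of Ereg, 3.42% overlaps an antisense gene model, and the strand setting of the counting is not given in the sources used here. Gene models on the other strand also overlap exons of Nrg1 (4.66%), Egf (5.38% and 4.43%), Tgfa (1.82%) and Erbb2 (0.17%).

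Areg (ENSMUSG00000029378, chromosome 5, 91139599 to 91148432, plus strand) encodes amphiregulin. It read 2.13 and 2.59 CPM at D2, 0.45 and 0.15 CPM at D4, 0 and 0.10 CPM at D6, and 0.21 and 0.31 CPM at D8. These are 43 and 52 reads at D2 against 0 to 9 reads in each later library, and the D2 libraries stood apart. Given the filter, it had to differ. Its log2 difference was -1.38 in D4 against D2 (limma adjusted p = 2.67e-06) and -1.42 in D8 against D2 (adjusted p = 1.33e-06), and with a pseudocount of 0.1 these were -2.72 and -2.79. From D4 on, levels were near the 3-read limit.

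Btc (ENSMUSG00000082361, chromosome 5, 91357261 to 91402994, minus strand) encodes betacellulin. It read 2.58 and 3.04 CPM at D2, 8.24 and 8.55 CPM at D4, 13.7 and 15.6 CPM at D6, and 14.4 and 16.5 CPM at D8. The days were separate up to D6, and D6 and D8 overlapped. Btc rose 2.99-fold by D4 (log2 difference 1.30, SE 0.109, limma adjusted p = 2.9e-07) and rose again by D6 (0.73, adjusted p = 0.00021). D8 was 5.50-fold above D2 (2.11, adjusted p = 1.35e-09), and D8 against D6 was not called (0.08, adjusted p = 0.701).

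Tgfa (ENSMUSG00000029999, chromosome 6, 86195223 to 86275719, plus strand) encodes TGF-alpha, a ligand of EGFR that epithelial cells often make for themselves. It read 1.02 and 1.39 CPM at D2, 1.80 and 2.28 CPM at D4, 4.13 and 4.35 CPM at D6, and 4.997 and 4.84 CPM at D8. Every day lay above the one before, with no overlap. The first rise was small (0.46, limma adjusted p = 0.0064), and its call was lost with quantile normalization (adjusted p = 0.0606), without D2 replicate 1 (0.082) and without D4 replicate 2 (0.0662). The second was larger (0.79, adjusted p = 0.000384), and D8 was 4.08-fold above D2 (1.43, adjusted p = 3.29e-07). The last step was 0.18 (adjusted p = 0.404).

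Egf and Epgn, the other ligand genes of EGFR, also rose. Egf read 1.19 and 1.30 CPM at D2, 3.10 and 2.76 CPM at D4, 5.61 and 3.89 CPM at D6, and 4.35 and 4.97 CPM at D8, and D8 was 3.74-fold above D2 (log2 difference 1.33, limma adjusted p = 2.1e-06). Epgn read 0.20 and 0.20 CPM at D2, 0.35 and 0.60 CPM at D4, 0.97 and 1.18 CPM at D6, and 2.32 and 2.56 CPM at D8. Each day of Epgn lay above the day before. It was the one tested gene of both families that limma called in D8 against D6 (0.73, adjusted p = 0.00562). D8 was 12.3-fold above D2 (1.52, adjusted p = 2.28e-07), from a D2 level close to the limit that a count of 0 allows. Epgn passed the filter on low values only through 3 libraries of D6 and D8, so it had to differ.

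**Figure D2:**
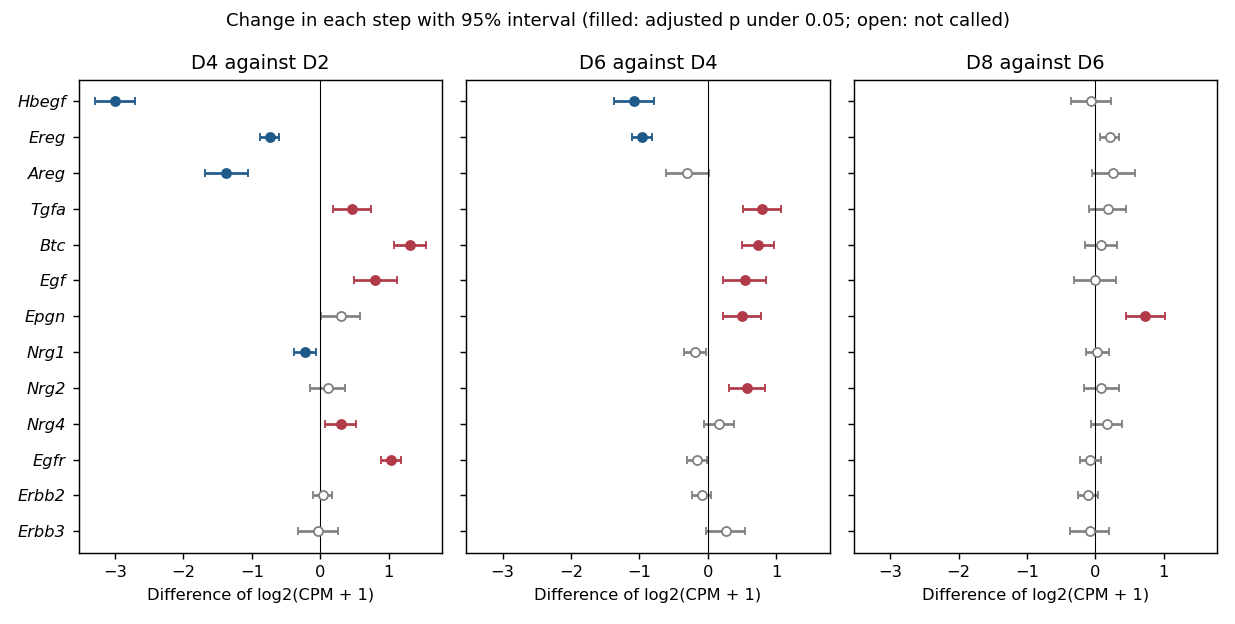
Difference of mean log2(CPM + 1) between successive days (horizontal axis) with its 95% interval for 13 tested genes of both families, filled where called and open where not. The first step holds the largest differences, with Hbegf at -3.00 and Btc at 1.30, and in the last step Epgn alone is filled.

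Levels of different genes were compared per kb of exon. This length merges all annotated exons of a gene, so the sums, shares and ranks depend on the gene models. At D2 the 7 ligand genes of EGFR summed to 37.3 ± 0.631 CPM per kb, of which Hbegf made up 47.2% and Ereg 44.8%. Areg held 5.21%, Btc 1.67%, and Tgfa, Egf and Epgn under 1% each. The sum was 14.9 ± 0.0900 CPM per kb at D4, 10.7 ± 0.923 at D6 and 12.7 ± 0.576 at D8. Ereg held 66.6 ± 1.45% of it at D4, 46.1 ± 0.713% at D6 and 45.2 ± 0.654% at D8. At D8 Btc held 26.9 ± 1.44% and Epgn 10.6 ± 0.271%. Hbegf then held 6.35 ± 1.20% and Tgfa 5.98%. The ligand mRNA per kb was lower after D2 in every library, and Btc was the second highest ligand at D8.

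**Figure D3:**
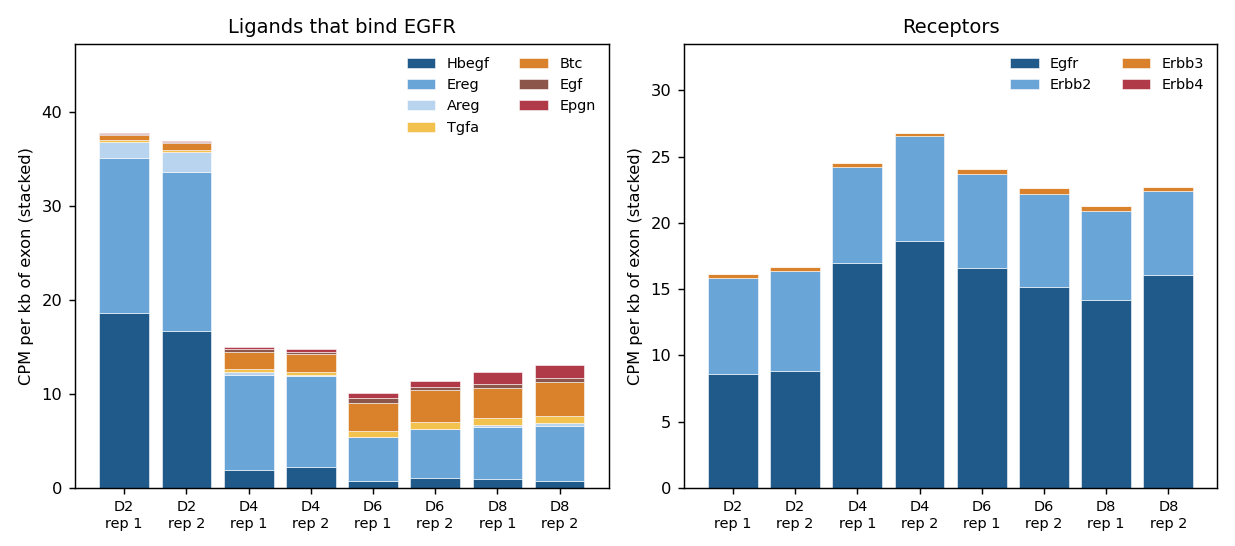
CPM per kb of exon (vertical axes from 0) stacked by gene for the ligands that bind EGFR (left) and for the receptors (right), with a bar for each of the 8 libraries. The ligand bars stand near 37 at D2 and between 10.1 and 14.9 later, and the receptor bars are lowest at D2.

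The order of the 9 genes per kb changed with the days. At D2 Hbegf (17.6 CPM per kb) and Ereg (16.7) were the highest and overlapped between libraries, followed by Egfr (8.69), Erbb2 (7.39), Nrg1 (2.34), Areg (1.94), Btc (0.621), Erbb3 (0.302) and Tgfa (0.186), with no other neighbours overlapping. At D4 Egfr led, and Hbegf overlapped Nrg1, Tgfa overlapped Erbb3, and Erbb3 overlapped Areg. At D6 and D8 the order was Egfr, Erbb2, Ereg, Btc, Nrg1, Hbegf, Tgfa, Erbb3 and Areg. Within it Hbegf (0.803 CPM per kb) and Tgfa (0.758) overlapped at D8, and no neighbours overlapped at D6. Hbegf thus went from the first rank at D2 to the sixth at D6 and D8.

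Among the neuregulins, Nrg1 (ENSMUSG00000062991, chromosome 8, 31814551 to 32884029, minus strand), a ligand of ERBB3 and ERBB4, fell slightly. It read 23.2 and 25.3 CPM at D2, 19.97 and 21.3 CPM at D4, 17.7 and 18.3 CPM at D6, and 18.2 and 18.5 CPM at D8. The 2 libraries of D2 were the highest of the 8, and those of D6 and D8 overlapped. D8 against D2 was -0.38 on the log2 scale (limma adjusted p = 0.000548) and -0.64 with quantile normalization. D4 against D2 was -0.22 (adjusted p = 0.0211), a call that was lost without D2 replicate 2 (0.178) or without D4 replicate 1 (0.106); with quantile normalization the difference was -0.40. D6 against D4 was not called with the authors' CPM (-0.19, adjusted p = 0.0713), but was called with median-of-ratios scaling (0.0171) and with quantile normalization (0.0215).

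Nrg4 read 4.61 and 5.33 CPM at D2 and 8.37 and 7.97 CPM at D8, a 1.64-fold rise (limma adjusted p = 0.00012), and 6.06% of its exon length overlaps Fbxo22 on the other strand. Nrg2 read 0.35 CPM in both D2 libraries and 1.29 and 1.28 CPM at D8 (log2 difference 0.76, adjusted p = 7.52e-05), but it passed the filter only through the 4 libraries of D6 and D8, so it had to differ. Nrg3 was read once in all 8 libraries together, and it was not tested. The summed neuregulins stayed between 3.18 and 3.53 CPM per kb in the means of the 4 days. Nrg1 made up 71.6% of that sum at D2 and 50.3% at D8, and Nrg4 made up 25.0% and 38.1%.

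Egfr (ENSMUSG00000020122, chromosome 11, 16752203 to 16918158, plus strand), the receptor of all 7 of those ligands, rose in the first step. It read 96.9 and 99.9 CPM at D2, 192 and 211 CPM at D4, 188 and 172 CPM at D6, and 160 and 182 CPM at D8. The D2 libraries were the lowest, and the highest was at D4. D4 was 2.05-fold above D2 (log2 difference 1.03, SE 0.0678, limma adjusted p = 2.99e-08), and D8 was 1.74-fold above D2 (0.79, adjusted p = 2.32e-07). D6 against D4 was -0.16 (adjusted p = 0.0739). That difference was called with median-of-ratios scaling (-0.25, adjusted p = 0.0181), with quantile normalization (0.0359), without D4 replicate 1 (0.0327), and without D8 replicate 1 (0.0490) or D8 replicate 2 (0.0492).

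Erbb2 (ENSMUSG00000062312, chromosome 11, 98412470 to 98437716, plus strand) changed little. It read 37.8 and 39.2 CPM at D2, 37.6 and 41.3 CPM at D4, 37.1 and 36.7 CPM at D6, and 35.1 and 33.1 CPM at D8. The libraries of D2 and D4 overlapped, and those of D8 were the lowest. D4 against D2 was 0.03, with a 95% interval of -0.11 to 0.17 (limma adjusted p = 0.682). D8 against D2 was called lower (-0.17, adjusted p = 0.0331). That call was lost without the filter on low values (0.05003), without the intensity trend (0.054), and without D2 replicate 1 (0.0695), D2 replicate 2 (0.164) or D8 replicate 2 (0.182). With median-of-ratios scaling it was -0.36 and with quantile normalization -0.37, both called.

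Erbb3 (ENSMUSG00000018166, chromosome 10, 128567523 to 128589652, minus strand) stayed low, at 1.84 and 1.79 CPM at D2, 2.10 and 1.45 CPM at D4, 2.10 and 2.51 CPM at D6, and 2.11 and 2.10 CPM at D8. The D4 libraries spanned those of D2, and no step between days was called. D8 against D2 was 0.14, with a 95% interval of -0.15 to 0.43 (limma adjusted p = 0.357). D6 against D4 was called only without D4 replicate 1 (0.43, adjusted p = 0.0416). Erbb4 lay between 0 and 0.41 CPM, under the filter in all 8 libraries.

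Per kb, the 4 receptor genes summed to 16.4 ± 0.357 CPM at D2 and 25.7 ± 1.59 at D4. Egfr held 53.0% of the sum at D2, 69.3% at D4 and 68.5% at D8, while Erbb2 went from 45.1% to 29.5% and 29.8%. Erbb3 held 1.84% at D2 and 1.59% at D8. At D2 the ligand genes of EGFR outweighed Egfr per kb (37.3 against 8.69), and at D4 they lay below it (14.9 against 17.8).

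Ereg, Areg, Btc and Epgn lie next to each other on chromosome 5, in 376 kb from the start of Epgn to the end of Btc. Their D8 levels against D2 went in both directions, as the plot by distance shows, with Epgn at 1.52, Ereg at -1.50, Areg at -1.42 and Btc at 2.11 on the log2 scale. The neighbours on the Epgn side, the chemokine genes Cxcl1 (3.34), Cxcl2 (1.12), Cxcl3 (0.49) and Cxcl15 (2.74) and the folate enzyme gene Mthfd2l (0.49), were all called higher by limma, as was Parm1 beyond Btc (0.27). Ereg and Areg, side by side, were called lower, and the other genes of these 10 higher, beside 23.1% and 47.3% of all tested genes. The directions of Areg (high only at D2) and of Epgn (under 1 CPM at D2) were fixed by the filter. Cxcl2 and Cxcl3 were also under 1 CPM at D2, at 0.24 and 0.56 CPM, and passed only through later days. Those days included D4 and D6, with means of 1.71 and 1.28 CPM for Cxcl2 and 1.24 and 1.02 CPM for Cxcl3. Their directions were thus not fixed by D8 alone, but not free of the filter. Ereg, Btc, Cxcl1, Cxcl15, Mthfd2l and Parm1 are the ones whose direction was free.

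**Figure D4:**
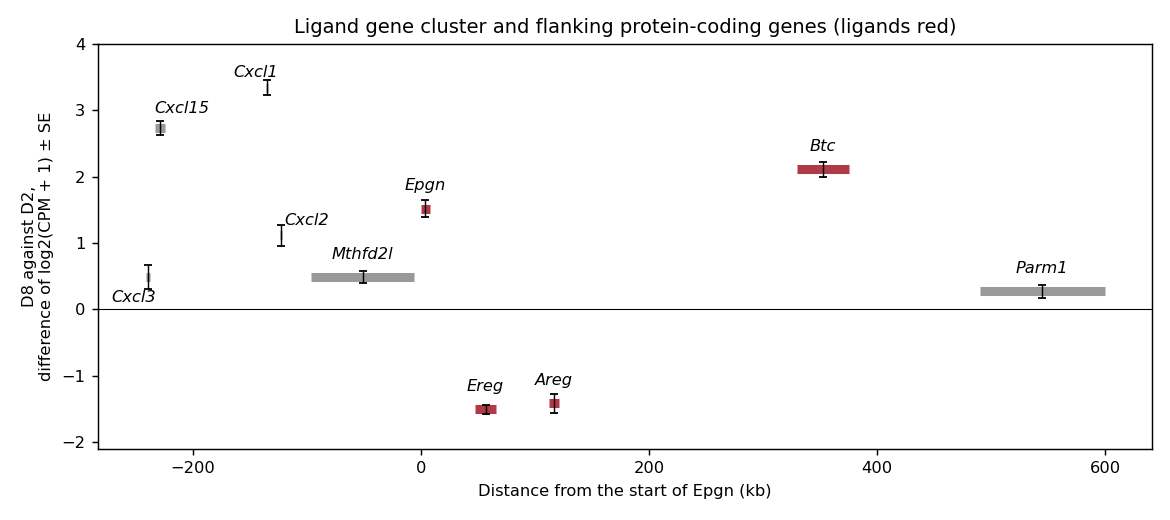
Difference of mean log2(CPM + 1) in D8 against D2 with its SE (vertical axis) against the distance in kb from the start of Epgn, with a bar as long as each gene, red for the ligand genes and grey for their neighbours. Ereg at -1.50 and Areg at -1.42 lie below 0, and all others lie above it.

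The promoter windows of 3 ligand genes of that cluster are shown because they stand within one stretch and their levels went different ways. Areg fell, and Btc and Epgn rose, though the filter on low values fixed the directions of Areg and Epgn. Each window runs from 250 bases before to 50 bases after the RefSeq start (GRCm38.p6, 5′ to 3′ on the gene's own strand), at chr5:91139349-91139648 (plus) for Areg, chr5:91402945-91403244 (minus) for Btc and chr5:91027267-91027566 (plus) for Epgn. Capitals mark matches, on either strand, to TATAAA, the TATA box, or GGGCGG, the GC box of Sp1-type factors.
Areg: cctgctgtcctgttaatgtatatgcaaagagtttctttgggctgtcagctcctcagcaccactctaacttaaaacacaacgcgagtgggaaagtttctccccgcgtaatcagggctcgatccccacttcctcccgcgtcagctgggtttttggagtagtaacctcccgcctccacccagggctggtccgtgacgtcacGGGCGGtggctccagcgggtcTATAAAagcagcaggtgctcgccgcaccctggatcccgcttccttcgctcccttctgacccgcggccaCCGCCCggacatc
Btc: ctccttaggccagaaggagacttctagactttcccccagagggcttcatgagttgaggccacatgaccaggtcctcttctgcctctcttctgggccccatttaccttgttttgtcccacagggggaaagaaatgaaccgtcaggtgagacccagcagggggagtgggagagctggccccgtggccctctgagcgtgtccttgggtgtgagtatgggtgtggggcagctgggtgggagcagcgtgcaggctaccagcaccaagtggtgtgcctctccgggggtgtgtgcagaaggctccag
Epgn: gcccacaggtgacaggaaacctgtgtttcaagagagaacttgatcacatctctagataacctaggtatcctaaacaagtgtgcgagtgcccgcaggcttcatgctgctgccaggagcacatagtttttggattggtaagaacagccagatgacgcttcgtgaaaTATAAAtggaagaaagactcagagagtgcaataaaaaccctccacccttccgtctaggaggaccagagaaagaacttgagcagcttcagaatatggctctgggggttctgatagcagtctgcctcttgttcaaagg
Areg held TATAAA from 31 bases before its start and GGGCGG at 2 places. Epgn held TATAAA from 86 bases before its RefSeq start, which is 33 bases before the start that GENCODE gives, since the annotated starts differ by 53 bases. The Btc window held neither. GC content was 59.3% for Areg, 60.3% for Btc and 47.3% for Epgn. Of 32851 RefSeq windows of 300 bases, 13.6% hold TATAAA and 35.7% hold GGGCGG. The AP-1 site TGANTCA, found in 7.81% of windows, and the E-box CACGTG, found in 7.15%, had no match in these 3 windows. Nor had they in the other matched windows of both families, of whose 15 genes 10 matched the RefSeq table; Hbegf, Ereg, Nrg1, Erbb3 and Nrg2 were not matched. The motifs do not overlap each other in these windows, and a match describes letters only.

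Genes that release the ligands or hold back that release were listed as 16 genes, all tested. In D4 against D2, 6 rose and 5 fell (median 0.03, beside 0.11 for all tested genes, of which 40.9% rose and 21.7% fell). In D8 against D2, 6 rose and 6 fell (median -0.07, beside 0.17, with 47.3% and 23.1%). Adam17, the main protease for Tgfa, Areg, Hbegf, Ereg and Epgn, rose from 63.5 ± 0.945 to 85.6 ± 0.538 CPM by D4 (limma adjusted p = 2.19e-05). Adam10, which releases Egf and Btc, did not pass the test in D4 against D2 (196 to 188 CPM, limma adjusted p = 0.435), but was called lower in D8 against D2 (176 CPM, -0.16, adjusted p = 0.0381). Adam12 rose from 31.7 ± 2.35 to 65.1 ± 3.62 CPM and Bace1, a protease that also cuts neuregulin, from 105 ± 0.789 to 186 ± 3.79 CPM by D4. Timp3, an inhibitor of ADAM17, fell from 2957 ± 67.4 to 1288 ± 73.1 CPM by D4 (log2 difference -1.20, adjusted p = 1.81e-09), and Adam9 from 279 ± 4.92 at D2 to 158 ± 13.3 CPM at D8.

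Of 28 genes for adaptors and relay below the receptors, 11 rose and 13 fell in D4 against D2 (median -0.0031, beside 0.11, 40.9% and 21.7% for all tested genes). In D8 against D2, 12 rose and 12 fell (median -0.08, beside 0.17, 47.3% and 23.1%). Pik3r1, a regulatory subunit of PI3 kinase, rose from 50.1 ± 0.585 at D2 to 148 ± 9.45 CPM at D8, and the adaptor gene Nck1 from 26.5 ± 0.499 to 58.8 ± 2.88 CPM. Map2k1, which encodes the kinase MEK1, fell from 97.7 ± 2.87 at D2 to 50.1 ± 2.26 CPM at D8 (-0.95, limma adjusted p = 1.48e-08). Pik3cb, a catalytic subunit of PI3 kinase, fell from 22.3 ± 0.832 to 12.02 ± 1.04 CPM by D4.

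Of 24 genes that restrain or degrade the receptors, 23 were tested, and 11 rose and 5 fell in D4 against D2 (median 0.13), shares near the 40.9% and 21.7% of all tested genes. In D6 against D4, 1 rose and 13 fell (median -0.23), beside 25.2%, 12.6% and a median of 0.07 for all tested genes. Over the whole interval, D8 against D2, 9 rose and 10 fell (median -0.12), beside 47.3%, 23.1% and a median of 0.17. Errfi1, whose product MIG6 binds and inhibits EGFR, fell from 76.2 ± 8.53 CPM at D2 to 24.0 ± 1.10 at D4 and 14.001 ± 1.51 at D8 (D8 against D2 -2.36, limma adjusted p = 9.73e-11). Lrig1, which lowers ERBB receptor protein, rose from 49.6 ± 1.72 to 106 ± 3.47 CPM by D4 (1.08, adjusted p = 2.11e-08). The Sprouty genes Spry4 (5.10 ± 0.472 to 23.9 ± 1.13 CPM) and Spry2 (11.4 ± 0.209 to 34.3 ± 0.680 CPM) rose in the same step, and both fell again by D6.

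Genes that receptor and ERK signalling are known to induce were listed as 32 genes, of which 28 remain once Hbegf, Ereg, Areg and Tgfa are set aside. Of these 28, 10 rose and 16 fell in D4 against D2 (median -0.39), beside 40.9% and 21.7% of all tested genes. In D6 against D4, 2 rose and 20 fell (median -0.50), beside 25.2% and 12.6%. In D8 against D2, 5 rose and 21 fell (median -1.14), beside 47.3% and 23.1%. They did not share 1 time course. Fos rose from 2.93 ± 0.711 CPM at D2 to 130 ± 1.54 CPM at D4 (5.07, limma adjusted p = 2.51e-12) and was at 4.97 ± 0.00688 CPM at D6. Fosb was at 35.0 ± 4.29, 114 ± 13.2 and 2.02 ± 0.329 CPM on D2, D4 and D6. Egr3 fell from 51.6 ± 2.24 at D2 to 4.60 ± 0.155 CPM at D4, and Dusp5, an ERK phosphatase gene, from 21.1 ± 1.91 to 2.56 ± 0.187 CPM. Hbegf was 8.69-fold lower at D4, the day on which Fos was highest.

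**Figure D5:**
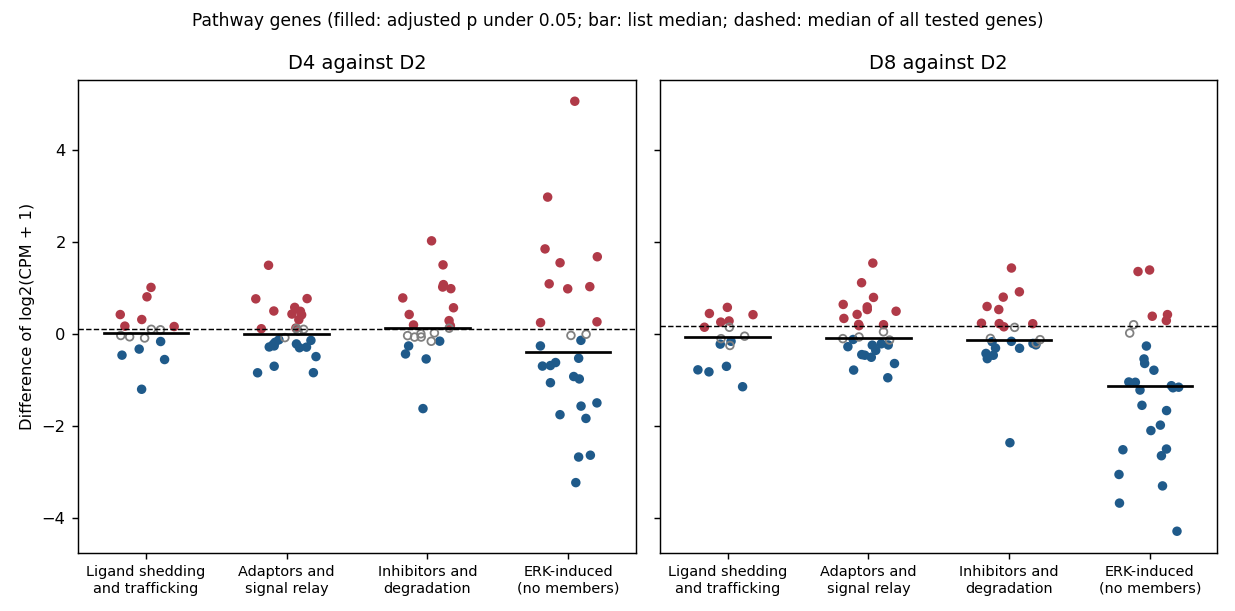
Difference of mean log2(CPM + 1) (vertical axis) for each tested gene of the 4 pathway lists, the 9 genes left out, in D4 against D2 (left) and D8 against D2 (right). Points are filled where called, bars mark list medians and the dashed line is the median of all tested genes (0.11 and 0.17); the ERK-induced list has its median at -0.39 and -1.14.

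Genes with the most similar course were sought among 2741 tested genes whose day means spanned at least 1 on the log2 scale, by Pearson's r over the 8 libraries, as a description. Most like Hbegf were Nexn, Slc1a4 and Nfil3 (r = 0.999, 0.998 and 0.998), and most like Ereg were Tbc1d1, Smoc2 and Apln (0.993, 0.991 and 0.991). Most like Areg were Abracl, Ugdh and Tpm4 (0.993, 0.989 and 0.989). Tgfa was near to Aldh1a3 and Khdc1a (each 0.994), and Btc to Dock11, Capn5 and Ntn1 (0.999, 0.999 and 0.998). Egfr was nearest to Lrig1, Fzd1 and Rreb1 (0.995, 0.994 and 0.993). Such values were common, since the 8 libraries share 4 days: 984 genes had r over 0.95 with Btc, 402 with Hbegf and 134 with Ereg. Nrg1, Erbb2 and Erbb3 spanned under 1, and no gene was named for them.

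Markers of other cells moved over the same days. The 6 smooth muscle genes included the contractile genes Acta2 and Cnn1. They summed to 3145 to 3253 CPM at D2 and 675 to 701 CPM at D4. All 6 were called lower in that step, beside 21.7% of all tested genes. Hbegf and Ereg fell in the same step. Epithelial markers (7 of 12 tested) summed to 66.0 to 68.3 CPM at D2 and 202 to 217 CPM at D8, with Krt8 from 2.40 to 125 CPM and Cdh1 from 5.07 to 36.6 CPM, while Krt19 went from 31.1 to 4.14 CPM and Epcam stayed at 0.974 CPM or less. In D8 against D2, 5 of the 7 were called higher and 1 lower, beside 47.3% and 23.1% of all tested genes. Cldn3, Cldn4 and Ovol1 were under 1 CPM at D2 (0.62, 0.37 and 0.11 CPM) and passed the filter only through later days. Their directions were therefore not free of the filter, while Cdh1 and Krt8 were above 1 CPM at D2. Keratinocyte markers (7 of 8 tested) went from 148 to 152 CPM at D2 to 476 to 506 CPM at D8. Tgfa and Btc rose over the same days. Perp (87.6 to 288 CPM) and Lgals7 (1.67 to 123 CPM) carried the keratinocyte sum. Of these 7 genes, 5 were called higher and 1 lower in D8 against D2, beside the same all-gene shares. Trp63 (0.22 CPM at D2, 0.93 CPM at D4 and 2.13 CPM at D8) passed the filter only through D6 and D8, so it had to differ. Sfn went from 17.98 to 5.29 CPM and Krt6a from 1.82 to 1.154 CPM. Schwann cell and neural crest markers (3 of 8 tested) went from 6.10 to 6.23 CPM to 29.3 to 30.0 CPM, mostly Mbp (2.81 to 22.5 CPM), with Sox10 at 0.564 CPM or less. Macrophage markers (9 of 9 tested) lay between 68.3 and 108 CPM, and endothelial markers (4 of 6 tested) went from 69.3 to 71.7 CPM at D2 to 165 to 166 CPM at D8. Nearly all of that was Tek (65.3 to 162 CPM), while Kdr went from 4.32 to 1.002 CPM and Cdh5 stayed at 0.448 CPM or less. The 4 mast cell markers were untested and summed to under 1 CPM, with Fcer1a at 0. The part of these cell types in the changes of the ligand and receptor genes was not tested.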

How the data were processed

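Bulk RNA-seq of 8 libraries (D2, D4, D6 and D8 of doxycycline, 2 each) was analysed, grouped by the day in the labels. The authors deposited 1 table of 32108 genes whose name speaks of TPM. Its values are CPM: the authors scaled each gene's reads to a library total of 1000000, as deposited. In each library every low value was a whole multiple of a hundredth of what 1 read is worth (tolerance 0.0005 reads), for short and long genes alike. Of low values (up to 20 reads), 58.3% to 60.0% were whole reads (tolerance 0.005 reads), so the others held fractions of reads. How these fractions arose was not tested. No count test was run, since the table is in a normalized unit by its name. Per the submitters' processing notes, Trimmomatic 0.39, featureCounts and the build mm10 were used; not given in the sources used here are the aligner, the annotation release, the strand setting and how reads matching several genes were handled. The design, written for the value as deposited, was applied unchanged. All columns belonged to a sample, so 0 columns were set aside.

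The filter kept the 15358 genes that reached 1 CPM in 2 or more libraries. Their log2(CPM + 1) values were fitted by day over all 8 libraries in limma 3.58.1 (R 4.3.3; lmFit and trended eBayes), which left 4 residual degrees of freedom. Tests were two-sided, with Benjamini-Hochberg adjustment across the 15358 genes. The fit was tested on simulated data. Python 3.11.15, numpy 2.4.6, pandas 2.3.3 and matplotlib 3.10.9 were used for the rest. GENCODE M21 gave symbols for 32029 genes (79 had none), positions and merged exon lengths. The genes and lists were chosen with earlier results of these data known. From each pathway list the 4 called genes with the largest change were named; Adam10 and Adam17 were named after their values were seen. For each of the 9 genes spanning at least 1 on the log2 scale, the 3 genes with the highest r were named, of which 1 is not reported here. Shared replicate numbers did not pair the libraries. Alternatives were a pseudocount of 0.1, no filter, no trend, median-of-ratios and quantile scaling, only the days compared, a replicate block, and leaving out each library.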

Additional observations from a re-analysis of the deposited data

How the results depend on the processing

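Among outcomes for single genes under alternative settings, 499 kept their direction and side of the threshold, 10 lost a call, 10 gained one and 11 changed sign, none of them called. With quantile normalization 7 of the 9 genes were called in D6 against D4, where the authors' CPM gave 4; leaving out a library gave 4 to 6 there, 5 to 7 in D4 against D2, 6 to 8 in D8 against D2 and 0 in D8 against D6. All genes called in D8 against D6 numbered 1399, and 344 without the filter, 533 without the trend and 398 to 1743 without 1 library. Erbb2 in D4 against D2 was -0.072 with median-of-ratios scaling, -0.12 with quantile normalization and -0.033 to 0.10 without 1 library; Erbb3 was -0.20 to 0.14 there, and -0.25 with quantile normalization in D8 against D2. Without 1 library, D8 against D6 ranged from -0.019 to 0.17 for Btc, -0.28 to 0.15 for Hbegf, -0.17 to 0.0026 for Erbb3 and -0.16 to 0.016 for Egfr. Without D2 replicate 1 or D2 replicate 2, Areg did not pass the filter on low values. It went untested there, so the counts of called genes leave it out. The cause of the other differences was not tested.

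Samples with the same replicate number did not deviate together (correlations of -0.10 to 0.21 over 15358 genes). With the replicate number as a block, 8 of the 9 genes and 10929 of all genes were called in D8 against D2, and 7 (9753), 4 (6046) and 0 (1593) in the 3 successive steps. Counts of reads limit Areg after D2 and Epgn and Nrg2 at D2, where 1 read is about 0.05 CPM.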
